A study of Mus musculus with 12 samples.

Results

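Endocannabinoids are lipid messengers that neurons release on demand and that act back on the axon terminals contacting them. The 2 main ones are 2-arachidonoylglycerol (2-AG) and anandamide, and both bind the cannabinoid receptor CB1. In the cortex CB1 dampens transmitter release, and during development it also guides growing axons. The enzymes that make and break down each lipid set how long the signal lasts.

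The 8 genes of this system described here were measured in the somatosensory cortex of mouse pups. They were Cnr1, which encodes CB1, Dagla and Daglb, which encode the diacylglycerol lipases that make 2-AG, and Napepld, whose product releases anandamide and related N-acylethanolamines from membrane phospholipids. Faah encodes the main hydrolase of anandamide, and Mgll, Abhd6 and Abhd12 encode hydrolases of 2-AG. The 8 genes were picked by symbol from the 24452 gene symbols of the files, and the transcripts of each symbol were summed. All 8 passed the filter on low counts and were among the 14739 symbols tested.

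Stranded RNA-Seq had been run on somatosensory cortex from male C57BL/6 mice on postnatal day 7. There were 4 groups of 3 libraries each: wildtype (WT) mice given saline, WT mice given ethanol (EtOH), p53 knockout (KO) mice given saline and KO mice given EtOH, all by intraperitoneal injection. The KO mice carry a constitutive disruption of Trp53, the gene for p53. The allele is present in every cell, and no value here shows in which cells a difference between genotypes sits. The study asked which transcripts respond to EtOH and whether p53 changes that response. The labels do not name the animal behind each library, so the p-values measure the spread between these libraries. Fewer cells of a type and less RNA per cell cannot be told apart in such tissue samples.

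The total estimated count was between 719735 and 17066392 per library. The libraries with the lowest totals, KO EtOH replicate 12 with 719735 and WT saline replicate 3 with 1953154, are also the 2 whose names open with L. In WT saline replicate 1 and KO EtOH replicate 12, long transcripts (at least 4000 bases) read low relative to short ones (under 1500 bases), by a median log2 difference of -1.41 and -1.04, and the other 10 libraries lay between -0.65 and 0.80. Markers of glutamatergic neurons were detected in every library, with summed levels between 653.6 and 1370 CPM (the count scaled to a common library size). Summed striatum markers were at 148.1 to 163.3 CPM in WT saline and 98.4 to 231.8 CPM in KO saline. They were at 116.5, 424.3 and 937.8 CPM in WT EtOH (replicates 4, 5 and 14) and 159.9, 203.9 and 439.6 CPM in KO EtOH (replicates 10, 12 and 18). Whether tissue beside the cortex entered these libraries was not tested. Trp53 itself was at 3.67 to 26.2 CPM in the WT libraries and 11.1 to 28.7 CPM in the KO libraries, and a count over the whole gene also takes reads from exons that the KO allele leaves, so it does not check the labels.

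The level of a gene per transcript length was read from the deposited RPKM, by name a read count scaled for transcript length and depth. Sorted RPKM were nearly the same in all libraries, so the values were not scaled for length and depth alone. The levels, shares and ratios in RPKM rest on them as deposited. Abhd12 stood at a median of 75.1 RPKM over the 12 libraries, with a range of 61.9 to 125.8, and was above Cnr1 in 12 of 12. Cnr1 had a median of 19.8 RPKM and Mgll one of 15.8 RPKM, and their order was not fixed, since Cnr1 was above Mgll in 8 of 12 libraries. Abhd6 (13.0 RPKM) and Faah (12.4 RPKM) could not be put in order either, as Abhd6 was the higher in 5 of 12. Dagla (8.64 RPKM) was above Daglb (4.87 RPKM) in 10 of 12 libraries, and Napepld was the lowest gene in 12 of 12, with a median of 1.16 RPKM. Within the 2-AG hydrolases, Abhd12 took 63.2% to 83.7% of the summed RPKM of Mgll, Abhd6 and Abhd12. In the adult brain Mgll is held to carry most of the hydrolysis of 2-AG, and RNA levels do not measure enzyme activity.

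**Figure D1:**
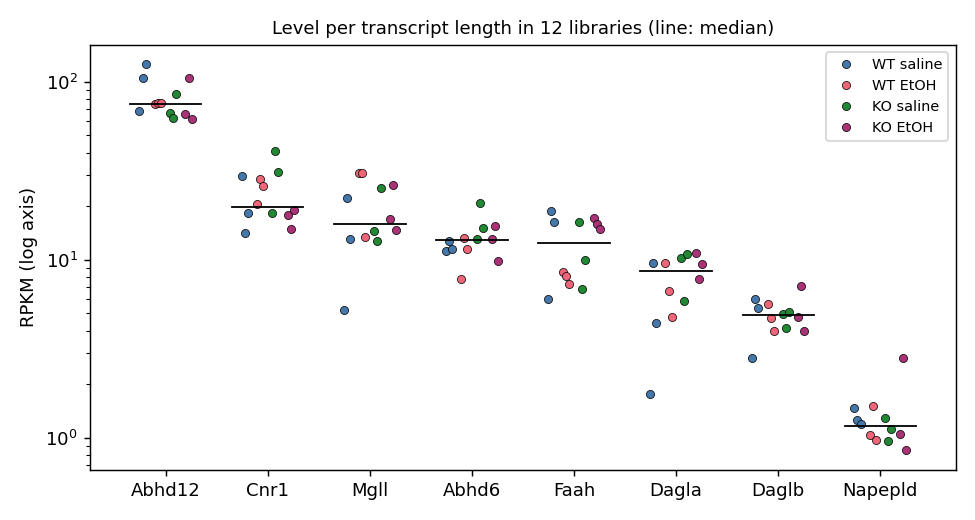
RPKM of the 8 genes on a log axis, ordered by their median, with 1 point for each of the 12 libraries, coloured by group, and a line at the median. Abhd12 lies above every other gene in all libraries, and Napepld, with a median of 1.16 RPKM, lies lowest.

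The Mgll locus on chromosome 6 is the one gene of the group that the files divide among several transcripts. The RefSeq entries NM_011844 and NM_001166249 start together, and NM_001166251 starts 292 bases further on. Their promoters are shown because the authors' quantification divided the counts between the 2 starts differently from library to library. Both were taken from RefSeq (assembly GRCm38.p6, plus strand, 250 bases before to 50 bases after the start), and capitals mark GC boxes, the core of a binding site for Sp1-type factors, searched as GGGCGG on both strands.
Mgll, first start, chr6:88724162-88724461: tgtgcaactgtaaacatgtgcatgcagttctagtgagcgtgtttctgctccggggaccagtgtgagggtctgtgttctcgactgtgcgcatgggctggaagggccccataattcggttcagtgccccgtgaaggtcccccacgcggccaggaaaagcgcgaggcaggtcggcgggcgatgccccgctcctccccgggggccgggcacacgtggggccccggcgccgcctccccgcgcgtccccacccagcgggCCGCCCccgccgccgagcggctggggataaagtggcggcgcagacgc
Mgll, second start, chr6:88724454-88724753: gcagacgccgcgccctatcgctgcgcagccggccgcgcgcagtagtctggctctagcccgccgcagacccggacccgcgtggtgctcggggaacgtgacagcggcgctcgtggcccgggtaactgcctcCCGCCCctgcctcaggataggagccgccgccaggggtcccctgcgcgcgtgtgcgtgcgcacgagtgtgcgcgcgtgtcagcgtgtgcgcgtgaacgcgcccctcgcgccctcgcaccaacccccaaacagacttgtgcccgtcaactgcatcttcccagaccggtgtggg

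Each Mgll promoter held 1 GC box and was dense in CpG, with 32 and 42 CpG dinucleotides against a median of 7 over all 32851 promoters of the table. RefSeq promoters were matched for 6 of the 8 genes, 10 promoters in all, and 6 of the 10 held a GC box against 35.7% of all promoters. The 10 are not independent, since Cnr1, Mgll and Abhd6 each supplied more than 1. The windows of Abhd6 overlap, so the same box can count again, and the share is a description. The half-site motif of p53, searched on both strands, was in 0 of the 10 and in 8.36% of all promoters, and these letters were searched in that window alone. Promoters of Dagla and Abhd12 were not analysed here.

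The level of Cnr1 varied widely among libraries of the same group. It was 275.8, 96.2 and 132.4 CPM in WT saline (replicates 1, 3 and 13) and 123.9, 195.5 and 162 CPM in WT EtOH (replicates 4, 5 and 14). In the KO mice it was 116.6, 261.9 and 185.4 CPM under saline (replicates 7, 8 and 9) and 111.1, 100.3 and 118.7 CPM after EtOH (replicates 10, 12 and 18). The KO EtOH libraries were the most alike and among the lowest, and they lay wholly below the WT EtOH libraries, by a narrow gap, while overlapping the KO saline libraries at their low end. With EtOH the log2 difference was -0.07 (SE 0.42) in WT mice and -0.77 (SE 0.42) in KO mice, where edgeR gave an unadjusted p of 0.0909 and an adjusted p of 0.999. The same fit put KO against WT mice at 0.16 (SE 0.42) under saline and -0.54 (SE 0.42) after EtOH, with an adjusted p of 0.982 for the latter. The test of whether EtOH acted differently in the KO gave -0.70 (SE 0.60, adjusted p = 0.596). Cnr1 is abundant in CCK-type interneurons, and 4 of 4 markers of these cells (Cck, Htr3a, Vip and Adarb2) were detected. Their summed levels were 241.1 to 448.7 CPM in WT saline, 42.4 to 198.6 CPM in WT EtOH, 163.7 to 183.6 CPM in KO saline and 171.1 to 805.7 CPM in KO EtOH. The library with the highest sum, KO EtOH replicate 12, had one of the lowest Cnr1 levels, and the part of these cells in the Cnr1 values was not tested.

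Among 10063 genes with a mean of at least 10 CPM, those whose level followed Cnr1 most closely over the 12 libraries were Ap3m1 (Pearson r of 0.965 on log2 CPM), Uba3 (0.958), Yme1l1 (0.958), Ythdf3 (0.957) and Taf9b (0.954). The 12 values share groups, depth and the length trend of the libraries, and 1 gene in 20 had an r above 0.767, so these are a description.

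The genes for 2-AG synthesis did not pass the test in any comparison. Dagla, the lipase that supplies most 2-AG in the brain, was at 8.45, 63.8 and 24.6 CPM in WT saline and 61.7, 42.7 and 31.1 CPM in WT EtOH. It was 65.5, 38.6 and 68.1 CPM in KO saline and 68.3, 45.1 and 60.3 CPM in KO EtOH. WT saline replicate 1 was the lowest by far, replicate 3 of the same group was among the higher libraries, and the groups overlapped. The log2 difference was 0.86 (SE 0.55, adjusted p = 0.392) for KO against WT mice under saline, 0.52 (SE 0.55) for EtOH in WT mice, 0.03 (SE 0.54) for EtOH in KO mice and 0.37 (SE 0.55) for KO against WT mice after EtOH. The interaction was -0.49 (SE 0.77). Without both libraries named with L, the saline comparison of genotypes became 1.72 (SE 0.46, adjusted p = 0.0200) and EtOH in WT mice 1.36 (unadjusted p = 0.0116, adjusted p = 0.0522), and in that fit 25.3% and 21.5% of all genes had an adjusted p under 0.05. Leaving out WT saline replicate 3 alone gave 1.75 (adjusted p = 0.0334) and 1.37 (unadjusted p = 0.0120, adjusted p = 0.0756). Leaving out WT saline replicate 1 instead gave 0.40 (unadjusted p = 0.390) and 0.034 (unadjusted p = 0.940), so both differences turn on which WT saline library is kept. With the trend on transcript length and GC content removed, the same differences were 0.50 and 0.19. Dagla is one of the longest transcripts here (5634 bases), and in WT saline replicate 1, where it was lowest, long transcripts read low as a class. Cnr1 is longer (5807 bases) and was at its highest in that same library, at 275.8 CPM. The part of the length trend in the Dagla values was not tested beyond these fits.

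Daglb, the second lipase, was flatter. It lay between 8.09 and 22.1 CPM in WT saline, 14.9 and 21.8 CPM in WT EtOH, 15.9 and 19.7 CPM in KO saline and 15.6 and 23.4 CPM in KO EtOH. The 5 log2 differences ran from -0.17 (SE 0.57, interaction) to 0.22 (SE 0.40, KO against WT under saline), and the groups overlapped throughout. The ratio of Dagla to Daglb in RPKM ran between 0.625, in WT saline replicate 1, and 2.39, in KO EtOH replicate 18.

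Napepld, on the anandamide side, had 5 to 100 counts per library and 3.94 to 8.36 CPM. Its mean was 4.22 ± 0.34 CPM in WT saline, 5.39 ± 1.07 in WT EtOH, 4.97 ± 0.90 in KO saline and 5.93 ± 2.14 in KO EtOH (SD, n = 3 each), and the highest value, 8.36 CPM in KO EtOH replicate 12, rested on 5 counts. The log2 difference of EtOH against saline was 0.36 (SE 0.45) in WT mice and 0.13 (SE 0.46) in KO mice, and that of KO against WT mice was 0.24 (SE 0.45) under saline and 0.01 (SE 0.48) after EtOH. The interaction was -0.23 (SE 0.64). None of these differences had an unadjusted p under 0.05.

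Faah, which ends the action of anandamide, read higher in the KO EtOH than in the WT EtOH libraries. It was at 37.5, 34.9 and 32.3 CPM in the WT EtOH libraries and at 70.6, 71.9 and 61.7 CPM in the KO EtOH libraries. Every KO EtOH library was above every WT EtOH library. Under saline the spread was far wider, with 23.0, 84.3 and 77.0 CPM in WT mice and 69.1, 30.6 and 43.0 CPM in KO mice, and the genotypes overlapped. After EtOH the log2 difference of KO against WT mice was 0.96 (SE 0.45), with an unadjusted p of 0.0487 and an adjusted p of 0.982 by edgeR. Faah was 1 of the 8 genes with an unadjusted p under 0.05 there, where 3.24% of all genes passed in either direction and 0.977% were higher. Faah and Cnr1 were the 2 of 8 genes whose groups did not overlap in this comparison, against 12.7% of all genes. No gene of the whole table had an adjusted p under 0.05 in it (0.0%), and the lowest was 0.649.

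The EtOH effect on Faah pointed in opposite directions in the genotypes. It was -0.81 (SE 0.44, unadjusted p = 0.0873) in WT mice and 0.51 (SE 0.44, unadjusted p = 0.264) in KO mice, and the interaction was 1.32 (SE 0.62) with an unadjusted p of 0.0518 and an adjusted p of 0.333. WT saline replicate 1, the low library of its group, bears on these values. Without it the effect in WT mice was -1.23 (unadjusted p = 0.00411, adjusted p = 0.304) and the interaction 1.75 (unadjusted p = 0.00302, adjusted p = 0.331). With the length and GC trend removed, the unadjusted p was 0.00922 for WT mice, 0.0104 for KO against WT mice after EtOH and 0.00517 for the interaction, and no adjusted p was under 0.05. The difference between genotypes after EtOH lost its unadjusted p under 0.05 in 8 of 12 fits that left out 1 library, with log2 differences between 0.92 and 1.07. The 8 libraries were WT saline replicate 13, WT EtOH replicates 4, 5 and 14, KO saline replicate 9 and KO EtOH replicates 10, 12 and 18.

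**Figure D2:**
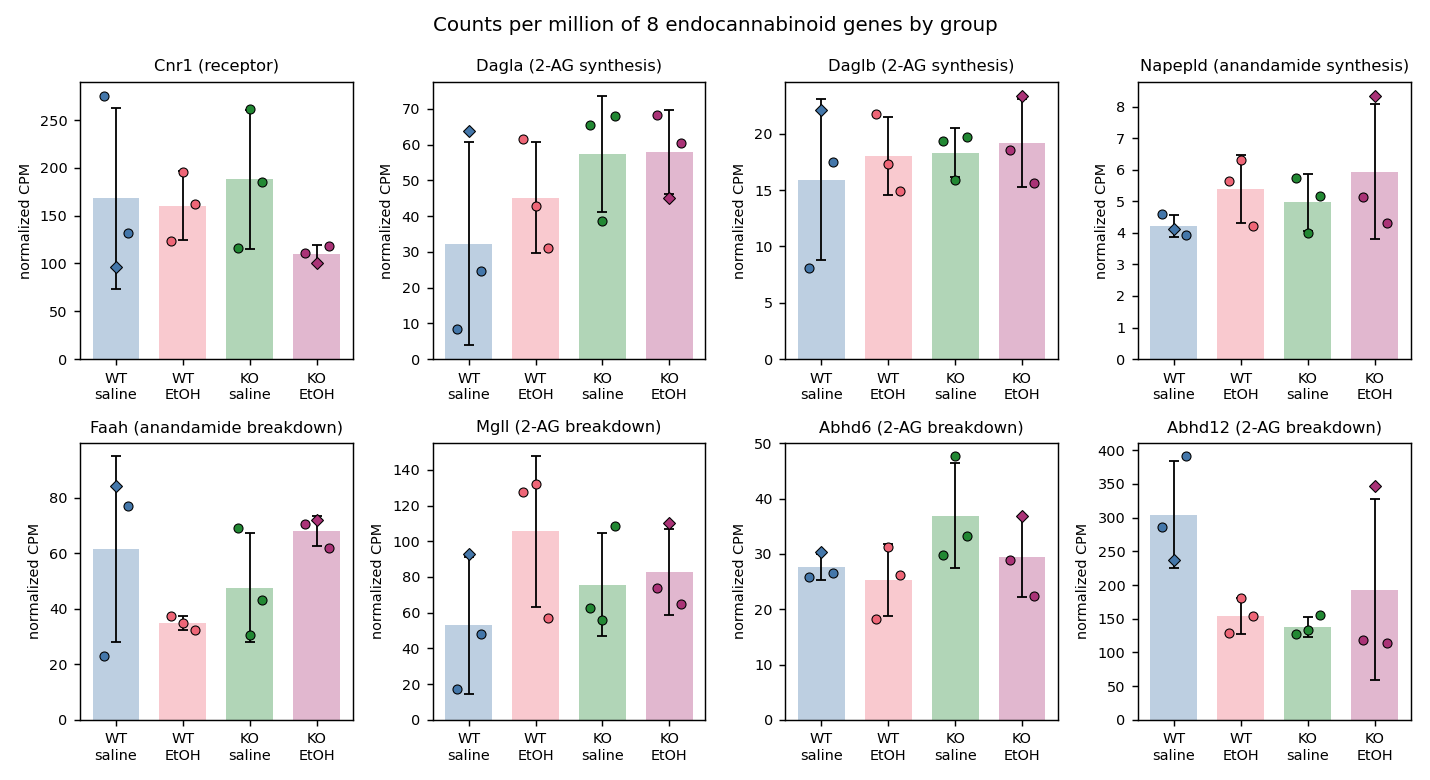
Normalized CPM of the 8 genes, 1 panel each, with bars for the group mean, whiskers for the SD (n = 3), points for libraries and diamonds for the 2 libraries named with L. The WT saline libraries of Abhd12 lie between 236.5 and 391.1 CPM, above all libraries of WT EtOH and KO saline, and Faah lies higher in KO EtOH than in WT EtOH.

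Mgll encodes monoacylglycerol lipase, the main enzyme that clears 2-AG at terminals. Its level was 17.1, 93.1 and 48.3 CPM in WT saline and 127.5, 132 and 56.9 CPM in WT EtOH. In the KO mice it was 62.5, 55.9 and 108.7 CPM under saline and 73.8, 110.3 and 64.7 CPM after EtOH. WT EtOH replicates 4 and 5 were the highest of all libraries, WT saline replicate 1 was the lowest, and the groups overlapped. EtOH against saline in WT mice gave a log2 difference of 1.01 (SE 0.53), and edgeR an unadjusted p of 0.0755 and an adjusted p of 0.312. In KO mice it was 0.11 (SE 0.53), KO against WT mice was 0.53 (SE 0.53) under saline and -0.37 (SE 0.53) after EtOH, and the interaction was -0.90 (SE 0.74, adjusted p = 0.584). Mgll was above 0 for EtOH in WT mice under every setting tried, and its unadjusted p crossed 0.05 with several of them. Without both libraries named with L it was 1.61 (SE 0.50, adjusted p = 0.0397), without WT saline replicate 3 alone 1.62 (adjusted p = 0.0622) and without WT EtOH replicate 14 it was 1.27 (unadjusted p = 0.0387). It was smaller without WT saline replicate 1 (0.57, unadjusted p = 0.251), WT EtOH replicate 5 (0.82, unadjusted p = 0.189) or WT EtOH replicate 4 (0.85, unadjusted p = 0.170). Endothelial and mural cell markers, 6 of 6 detected, were highest in the same 4 libraries as Mgll, at 322.3 CPM in WT EtOH replicate 4, 329.7 CPM in WT EtOH replicate 5, 263.6 CPM in KO saline replicate 9 and 329.3 CPM in KO EtOH replicate 12. The next highest was WT saline replicate 1, the library with the lowest Mgll, at 261.6 CPM. The marker ranges were 185.6 to 261.6 CPM in WT saline, 174.3 to 329.7 CPM in WT EtOH, 176.6 to 263.6 CPM in KO saline and 153.3 to 329.3 CPM in KO EtOH. WT EtOH replicate 4 also had the highest summed levels of thalamus markers (640.0 CPM, against 39.1 to 107.3 CPM in the other 11 libraries) and of choroid plexus markers (4996 CPM, against at most 2248 CPM), while WT EtOH replicate 5, with as much Mgll, had 87.0 and 21.96 CPM. The part of any of these cells in the Mgll level was not tested.

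The authors' quantification placed 9.09% to 10.4% of the Mgll count of the WT saline libraries on NM_001166251, the transcript of the second start. The shares were 31.7%, 31.0% and 9.30% in WT EtOH, 13.2%, 24.0% and 46.5% in KO saline and 23.4%, 0.245% and 29.8% in KO EtOH. The 2 WT EtOH libraries with most Mgll also had the higher shares, and the third was like WT saline. Every KO saline library was above every WT saline library, and 3 libraries against 3 cannot give an exact two-sided permutation p below 0.1. The share in KO EtOH replicate 12 came from 66 counts and has a 95% Wilson interval, from counts rounded to whole numbers, of 0.0% to 5.50%, and that in WT saline replicate 1 came from 93 counts, with an interval of 5.95% to 18.7%. Those 2 libraries placed 86.0% and 77.3% of their count on the short NM_001166249 (1034 bases), against 7.46% to 32.0% in the other 10, and are the same libraries in which long transcripts read low. Intervals cover counting error only. The transcripts share most exons, so these shares rest on how the authors' software divided the reads.

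**Figure D3:**
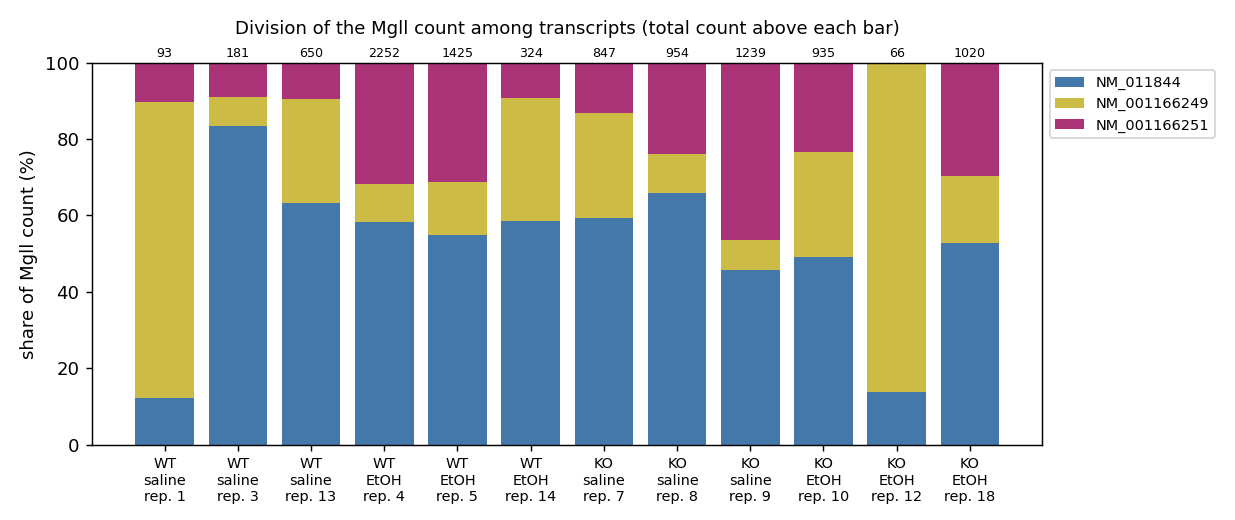
Share of the Mgll count that the authors' quantification placed on each of 3 transcripts, 1 bar per library, with the library's total Mgll count above the bar. WT saline replicate 1 and KO EtOH replicate 12 stand apart with 77.3% and 86.0% on NM_001166249, and the share on NM_001166251 reaches 46.5% in KO saline replicate 9.

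Abhd6, a membrane hydrolase that limits 2-AG on the postsynaptic side, was the steadiest of the 2-AG hydrolases. Its mean was 27.6 ± 2.38 CPM in WT saline, 25.2 ± 6.52 in WT EtOH, 36.9 ± 9.48 in KO saline and 29.4 ± 7.23 in KO EtOH (SD, n = 3 each). The groups overlapped in all 4 pairs, with KO saline replicate 8 the highest at 47.7 CPM. The log2 differences were -0.13 (SE 0.35) for EtOH in WT mice, -0.36 (SE 0.35) for EtOH in KO mice, 0.42 (SE 0.35) for KO against WT mice under saline and 0.19 (SE 0.35) after EtOH, with -0.23 (SE 0.49) for the interaction.

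Abhd12 showed the clearest difference of the 8 genes. It encodes a hydrolase of 2-AG that is better known for its action on lysophosphatidylserine, and its loss causes a neurodegenerative disease in humans. It was at 285.9, 236.5 and 391.1 CPM in WT saline, against 128.2, 180.9 and 153.7 CPM in WT EtOH. In KO saline it was 127.2, 132.6 and 154.9 CPM, and in KO EtOH 118, 347.7 and 113.6 CPM. The WT saline libraries lay above every library of WT EtOH and KO saline, and KO EtOH replicate 12 stood apart from its own group at the level of WT saline.

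EtOH against saline in WT mice gave a log2 difference of -0.98 (SE 0.43) for Abhd12, with an unadjusted p of 0.0386 and an adjusted p of 0.249 by edgeR. KO against WT mice under saline gave -1.14 (SE 0.43), with an unadjusted p of 0.0192 and an adjusted p of 0.193. These comparisons share the WT saline libraries, so they are not independent. Abhd12 was the only one of the 8 genes with an unadjusted p under 0.05 in either, which 18.3% and 19.6% of all genes had (8.36% and 10.5% as lower), and the only one without overlap between the groups, against 19.6% and 22.9% of all genes. A share of 1 gene in 8 is below the background in both. No gene of the group had an adjusted p under 0.05, where 0.0746% and 0.0543% of all genes did, and at an adjusted p under 0.30 Abhd12 passed in both, as did 22.5% and 25.8% of all genes.

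In KO mice the EtOH effect on Abhd12 was 0.46 (SE 0.43, adjusted p = 0.999), and KO against WT mice after EtOH gave 0.31 (SE 0.43, adjusted p = 0.982). Both rested on KO EtOH replicate 12: without it and WT saline replicate 3, the other library named with L, they were -0.28 and -0.42, neither with an unadjusted p under 0.05. In EtOH against saline in KO mice, 0 of the 8 genes had an unadjusted p under 0.05 by edgeR, against 3.15% of all genes, and none was without overlap, against 10.8%. DESeq2 also called 0 there. The interaction for Abhd12, the EtOH effect in KO minus that in WT mice, was 1.45 (SE 0.61) with an unadjusted p of 0.0321 and an adjusted p of 0.298, the only one of the 8 genes with an unadjusted p under 0.05 in that test, which 15.2% of all genes had (7.5% as higher). At an adjusted p under 0.30 Abhd12 passed there, as did 11.1% of all genes. Without KO EtOH replicate 12 it was 0.73 (unadjusted p = 0.127). It also lost its unadjusted p under 0.05 without TMM factors (0.87, unadjusted p = 0.128), on log2(RPKM + 1) (0.44, unadjusted p = 0.301), with the first letter of the library name as a covariate (0.96, unadjusted p = 0.159) and with the length and GC trend removed (0.92, unadjusted p = 0.108).

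Without both libraries named with L, the differences in Abhd12 were larger, at -1.21 (SE 0.28, adjusted p = 0.0147) for EtOH in WT mice and -1.35 (SE 0.28, adjusted p = 0.00746) for KO against WT mice under saline, in a fit where 21.5% and 25.3% of all genes had an adjusted p under 0.05. With the first letter of the library name as a covariate, which keeps those libraries, they were -0.84 (unadjusted p = 0.0641) and -0.997 (unadjusted p = 0.0322). Library size without TMM factors gave -0.55 and -0.69, with all genes then at a median of 0.49 in both, so that Abhd12 lay 1.04 and 1.17 below that median, and with the factors it lay 1.04 and 1.18 below. On the deposited RPKM the same differences were -0.36 and -0.44 on the log2(RPKM + 1) scale, with unadjusted p of 0.237 and 0.149 by limma. The 3 libraries whose removal took the unadjusted p for EtOH in WT mice above 0.05 were WT saline replicate 13 (-0.76, unadjusted p = 0.133), WT EtOH replicate 4 (-0.88, unadjusted p = 0.109) and WT EtOH replicate 14 (-1.03, unadjusted p = 0.0719). For KO against WT mice they were WT saline replicate 13 (-0.91, unadjusted p = 0.0743) and KO saline replicates 7 (-1.12, unadjusted p = 0.0531) and 8 (-1.11, unadjusted p = 0.0517).

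Markers of red blood cells were highest in the same 4 libraries as Abhd12. The summed level of 5 of 5 markers was 337.3 to 1319 CPM in WT saline, 50.2 to 145.3 CPM in WT EtOH, 35.9 to 99.3 CPM in KO saline and 29.1 to 765.6 CPM in KO EtOH, where the highest was replicate 12, and no marker was at 0 in all libraries. Markers of CCK-type interneurons (Cck, Htr3a, Vip and Adarb2) were highest in these same 4 libraries. They were at 448.7, 241.1 and 303.3 CPM in WT saline and 805.7 CPM in KO EtOH replicate 12, against at most 198.6 CPM elsewhere. General markers of GABAergic interneurons did not share this order. They were at 324.3, 605.7 and 261.5 CPM in WT saline and 1026 CPM in KO EtOH replicate 12. Their range was 401.4 to 639.2 CPM in WT EtOH and 355.3 to 453.6 CPM in KO saline. The Abhd12 transcript has 1999 bases, between the classes of short and long transcripts used here, and the 4 libraries with the highest Abhd12 were the 4 in which short transcripts read highest relative to long ones. With the length and GC trend removed, the differences were -0.81 (unadjusted p = 0.0523) and -0.89 (unadjusted p = 0.0342). The marker sums are CPM values from which the length and GC trend was not removed, so they do not show a difference in cell content by themselves. The part of red blood cells or CCK-type interneurons in the Abhd12 values was not tested.

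**Figure D4:**
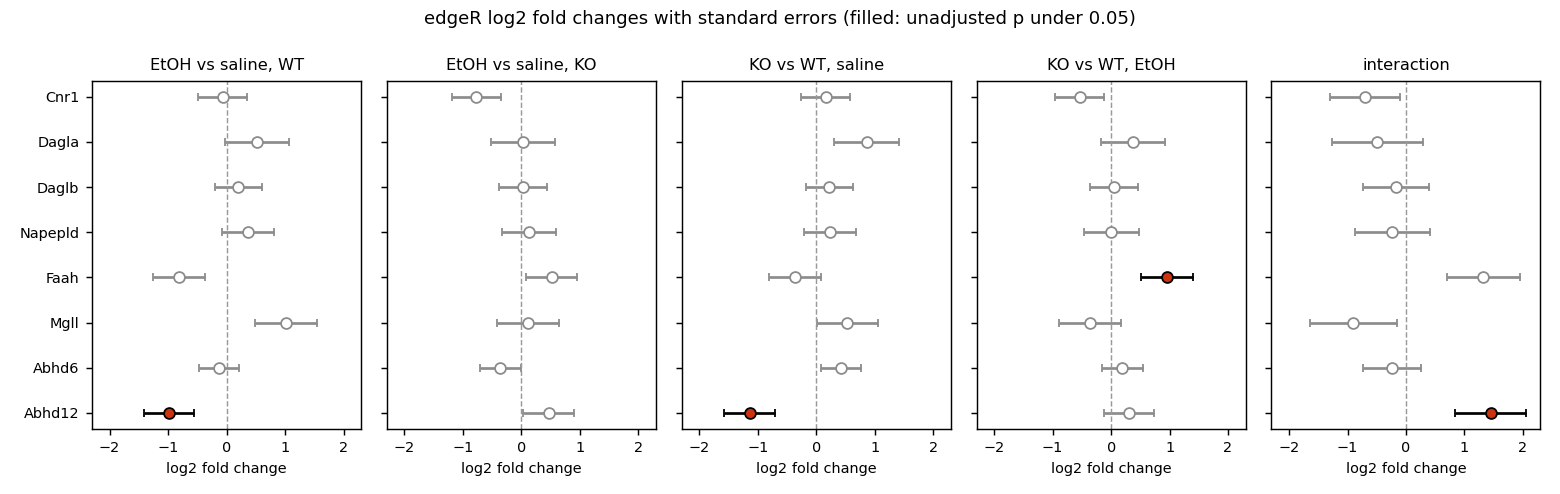
edgeR log2 fold changes (points) with SE (whiskers) of the 8 genes in the 5 tests, 1 panel each, where filled points have an unadjusted p under 0.05. Abhd12 is filled in 3 panels, at -0.98, -1.14 and 1.45, and Faah in 1, at 0.96.

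**Figure D5:**
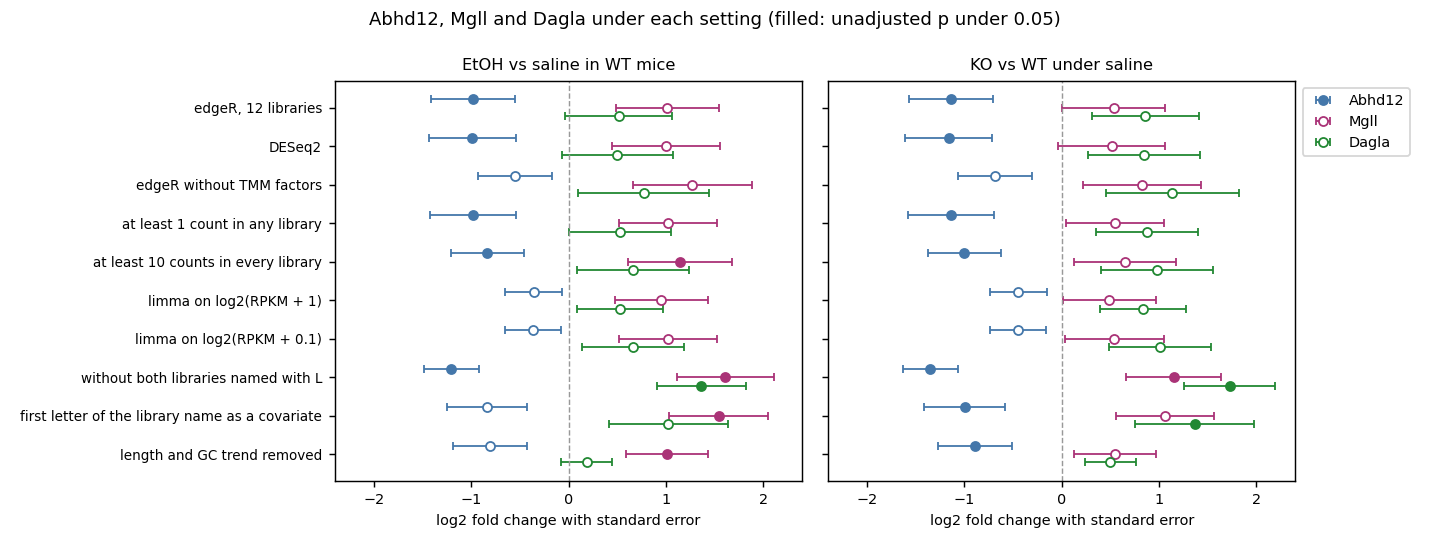
log2 fold changes with SE of Abhd12, Mgll and Dagla for EtOH against saline in WT mice (left) and KO against WT mice under saline (right) under 10 settings, filled where the unadjusted p was under 0.05. Abhd12 is below 0, and Mgll and Dagla are above 0, in every setting, and the size of Abhd12 runs from -0.36 to -1.21 on the left.

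As a group, the 8 genes did not move one way. In WT mice 4 were higher and 4 lower with EtOH, with a median log2 difference of 0.06, the same as that of all genes (0.06). In KO mice the median was 0.07 against 0.01 for all genes. Under saline the KO against WT median was 0.23 against 0.04 for all genes, with 6 genes above 0 and 2 below, and after EtOH it was 0.12 against -0.03. The medians are descriptions of lists of unequal size, and no test was run on them.

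A wider list of 34 genes around the pathway was also counted. It held other receptors, phospholipases and receptors upstream of 2-AG, further enzymes of N-acylethanolamines and 2-AG, lipid carriers and the G proteins that CB1 uses. Of these, 27 were tested. Cnr2, Gpr55, Trpv1, Gpr18, Gpr119, Alox12 and Alox15 did not pass the filter on low counts. With EtOH in WT mice 5 of 27 genes had an unadjusted p under 0.05, with 2 higher and 3 lower, a share of 18.5% beside the 18.3% of all genes. In KO mice 1 of 27 did, or 3.70% beside 3.15%. In KO against WT mice under saline the count was 5 of 27 (2 higher and 3 lower), or 18.5% beside 19.6%, after EtOH 2 of 27 (both lower), or 7.41% beside 3.24%, and in the interaction 4 of 27, or 14.8% beside 15.2% of all genes.

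Plcb4, a phospholipase C that produces the diacylglycerol from which 2-AG is made, was the one gene of the list with an adjusted p under 0.05. This was for EtOH in WT mice, where 0.0746% of all genes had one. Plcb4 was at a low level of 1.29, 2.57 and 1.56 CPM in WT saline and at 50.6, 16.7 and 16.2 CPM in WT EtOH. It was 14.8, 16.1 and 14.0 CPM in KO saline and 14.5, 5.02 and 13.9 CPM in KO EtOH. The WT saline libraries were lower than all the others, and WT EtOH replicate 4, the library high in thalamus markers, was the highest. With EtOH in WT mice it rose by a log2 difference of 4.05 (SE 0.59, adjusted p = 0.0303), and KO against WT mice under saline gave 3.15 (adjusted p = 0.101), both against the same WT saline libraries. The interaction was -4.36 (adjusted p = 0.140), and KO against WT mice after EtOH gave -1.21 (unadjusted p = 0.0299). Without WT EtOH replicate 4 the effect in WT mice was 3.27 (adjusted p = 0.119) and KO against WT mice after EtOH gave -0.43 (unadjusted p = 0.364), and over the 12 fits that left out 1 library the adjusted p of the effect in WT mice lay between 0.0111 and 0.119. That adjusted p was 0.0524 without TMM factors and 0.0965 with the first letter as a covariate. By limma on log2(RPKM + 1) and log2(RPKM + 0.1) it was 0.1155 and 0.068. It stayed under 0.05 with DESeq2, with at least 1 count in any library and with the length and GC trend removed. It also did so without both libraries named with L. With at least 10 counts in every library Plcb4 was not tested.

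Grm5, the glutamate receptor mGluR5 that drives 2-AG synthesis, was lower in KO than in WT mice after EtOH, by a log2 difference of -1.27 (SE 0.43, unadjusted p = 0.0108, adjusted p = 0.982), and its interaction was -1.72 (adjusted p = 0.256). The interaction was -0.85 (unadjusted p = 0.0960) with the length and GC trend removed, -1.33 (unadjusted p = 0.0581) with the first letter as a covariate and -1.27 (unadjusted p = 0.0506) without both libraries named with L. With EtOH in KO mice it was -0.97 (unadjusted p = 0.0394), and -0.58 (unadjusted p = 0.112) with that trend removed. The fatty acid-binding proteins carry anandamide to Faah inside the cell. Fabp5 was at -1.84 (adjusted p = 0.215) and Fabp3 at -1.36 (adjusted p = 0.220) with EtOH in WT mice, and Fabp5 at -1.87 (adjusted p = 0.187) for KO against WT mice under saline, but Fabp5 turned to 0.08 and 0.36 on the RPKM scale, and without WT saline replicate 1 the differences were -0.72 and -0.75 (unadjusted p = 0.243 and 0.226). WT saline replicate 1 alone had 5338 CPM of Fabp5, against 346.8 to 1583 CPM in the other libraries. Chrm3, a muscarinic receptor upstream of 2-AG, was higher in KO than in WT mice under saline, by 1.57 (SE 0.52, unadjusted p = 0.00912, adjusted p = 0.177). It was at 5.1, 3.1 and 13.3 CPM in WT saline and 17.1, 22.1 and 28.0 CPM in KO saline. In that comparison 19.6% of all genes had an unadjusted p under 0.05. Fabp3 had an interaction of 1.83 (unadjusted p = 0.0278, adjusted p = 0.287). Fabp3 was near 0 on other scales, with an interaction of 0.16 (unadjusted p = 0.717) on log2(RPKM + 1) and 0.045 (unadjusted p = 0.913) with the length and GC trend removed. Its effect of EtOH in WT mice was -0.20 (unadjusted p = 0.521) and -0.36 (unadjusted p = 0.229) in those fits and -0.72 (unadjusted p = 0.179) without WT saline replicate 1.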

How the data were processed

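The authors filtered reads at a quality score of at least 30, used TopHat with Bowtie2 for alignment to the mm10 genome, and took counts of RefSeq transcripts from Partek Flow, whose version and counting settings are not given in the sources used here. They deposited an estimated count for each of 35840 transcripts in each library, with fractions and not scaled for depth, and RPKM for the same transcripts. Sorted RPKM were the same in all libraries within 0.1% at 99.7% of the 20504 ranks above 0, so differences in the overall distribution between libraries are not kept in them, and the sources used here do not state a step that does this. Groups came from the sample labels.

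Estimated counts were summed per symbol and rounded. The main tool was edgeR 4.0.16, run in R 4.3.3. Its filterByExpr filter and TMM scaling were applied, and quasi-likelihood tests came from 1 model of all 12 libraries in which each group had its own mean. Tests of the 5 contrasts were two-sided, their p-values were adjusted by Benjamini-Hochberg across the 14739 symbols tested, and the SE was derived from the F statistic. CPM values carry the TMM factors (0.564 to 1.23). RPKM served for levels between genes. The alternatives were DESeq2 1.42.0, library size alone, filters of 1 count in any or 10 counts in every library, limma 3.58.1 with RPKM as log2(RPKM + 1) and with a pseudocount of 0.1, fits without the 2 libraries named with L, the first letter of the library name as a covariate, an offset that took out the dependence on transcript length and GC content in every library (5 degrees of freedom per spline) and 12 fits without 1 library each. On simulated data edgeR found 94.5% of 200 genes changed 4-fold for EtOH in WT mice among 14560 genes with 12 false calls. DESeq2 found 95% with 30. The simulated libraries had the totals of the measured ones and no length trend. Every gene had the same spread beyond counting error, and the changed genes were drawn from those above a set level. Whether these figures hold for the measured libraries, for genes of low level or for smaller differences was not tested. Summaries were made in Python 3.11.15 (pandas 2.3.3, numpy 2.4.6, scipy 1.17.1) and plots in matplotlib 3.10.9.

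The rule for named genes covered the 8 genes in every contrast, up to 3 genes of the wider list with the smallest unadjusted p under 0.05 in each contrast, and the 5 genes most like Cnr1. The 8 genes, the wider list and the marker lists were chosen with earlier results of these data known. The paper describes laser microdissection for part of the somatosensory cortex samples and a hole punch for the later ones. Which libraries came from which dissection method could not be assigned from the labels. Marker lists of 12 cell types and regions were summed per library. Apart from those of glutamatergic neurons, GABAergic interneurons and striatum, the sums printed were picked because they moved with a result. Such a match was selected from these same data and is a description.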

Additional observations from a re-analysis of the deposited data

Results flagged for a closer look

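The interaction test of edgeR gave Abhd12 a log2 difference of 1.45 (SE 0.61, unadjusted p = 0.0321, adjusted p = 0.298). The EtOH effect was -0.98 in WT mice and 0.46 in KO mice. The KO EtOH libraries were at 118, 347.7 and 113.6 CPM (replicates 10, 12 and 18), and the KO saline libraries at 127.2, 132.6 and 154.9 CPM. Replicates 10 and 18 thus lay below every KO saline library. Without both libraries named with L the effect in KO mice was -0.28. The interaction depends on KO EtOH replicate 12, the library with the lowest total count, and was 0.73 (unadjusted p = 0.127) without it. Over the 12 fits that left out 1 library it ran from 0.73 to 1.79, with an unadjusted p under 0.05 in 7 of 12. The unadjusted p was also above 0.05 without TMM factors (0.87, unadjusted p = 0.128), on log2(RPKM + 1) (0.44, unadjusted p = 0.301) and log2(RPKM + 0.1) (0.45, unadjusted p = 0.297), with the first letter of the library name as a covariate (0.96, unadjusted p = 0.159) and with the length and GC trend removed (0.92, unadjusted p = 0.108).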

How the results depend on the processing

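The main limit is the number of libraries, 3 per group, and the depth of KO EtOH replicate 12, where 5 to 208 counts stand behind each of the 8 genes. Over 52 results of single genes and 21 alternatives, 907 of 1082 values kept their direction and their side of an unadjusted p of 0.05, 77 lost it, 31 gained it and 67 changed sign. With at least 10 counts in every library, Napepld, Plcb4 and Chrm3 were not tested. The cause of a change was not tested, except where fewer genes or libraries entered the fit. No paired analysis was possible because the groups share no replicate numbers.

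The counts below are descriptions, since most fits lack the share of all genes beside them. With TMM factors, an unadjusted p under 0.05 fell to 18.3% of all genes for EtOH in WT mice and 3.15% in KO mice. For KO against WT mice it fell to 19.6% under saline and 3.24% after EtOH, and in the interaction to 15.2%. Without both libraries named with L, 21.5% of all genes had an adjusted p under 0.05 for EtOH in WT mice. For KO against WT mice under saline 25.3% did. The number of the 8 genes with an unadjusted p under 0.05 for EtOH in WT mice, 1 by edgeR with TMM factors, was 0 without TMM factors and on log2(RPKM + 1) and log2(RPKM + 0.1), 2 with at least 10 counts in every library and with the length and GC trend removed, and 3 without both libraries named with L. For KO against WT mice under saline it was 1, and 0 on either RPKM scale, 2 with the first letter of the library name as a covariate and 3 without both libraries named with L. Without TMM factors the single gene there was Abhd6 (0.84, unadjusted p = 0.0427) and not Abhd12. For KO against WT mice after EtOH it was 1, and 0 without TMM factors, with at least 10 counts in every library, with the first letter as a covariate and without both libraries named with L. For the interaction it was 1, and 2 with DESeq2, with at least 1 count in any library and without both libraries named with L. It stayed at 1 with another gene in place of Abhd12 in several fits, Cnr1 without TMM factors (unadjusted p = 0.0287) and on both RPKM scales (0.0497 and 0.0487), Mgll with the first letter as a covariate (0.0307) and Faah with the length and GC trend removed (0.00517). Likewise Mgll (0.00996) took the place of Abhd12 (0.0641) for EtOH in WT mice with the first letter as a covariate, and Mgll and Faah were the 2 genes there with the length and GC trend removed. Leaving out 1 library at a time gave 0 to 3 for EtOH in WT mice, 0 to 1 for EtOH in KO mice, 0 to 3 for KO against WT mice under saline, 0 to 1 after EtOH and 0 to 3 for the interaction. Without TMM factors, 89.4% of the genes called over the whole table for EtOH in WT mice were higher, against 54.4% with them, and 84.3% against 46.6% for KO against WT mice under saline, and 19.2% against 49.4% for the interaction.

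Changes of sign came, with the exception of Fabp5, in differences that had no unadjusted p under 0.05 in either setting. For EtOH in WT mice, Cnr1 and Abhd6 were at 0.51 and 0.28 without TMM factors and at 0.080 and 0.0082 with at least 10 counts in every library. There, on log2(RPKM + 1), Cnr1 was at 0.31, Napepld at -0.099 and Fabp5 at 0.079, and on log2(RPKM + 0.1) at 0.33, -0.17 and 0.079. With the length and GC trend removed, Daglb was at -0.080 and Abhd6 at 0.011. For EtOH in KO mice, the first letter as a covariate gave -0.15 for Dagla, -0.15 for Daglb and -0.25 for Mgll, and leaving out both libraries named with L gave -0.12 for Daglb, -0.094 for Napepld, -0.15 for Mgll and -0.28 for Abhd12.

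For KO against WT mice under saline, Napepld and Fabp5 were at -0.12 and 0.36 on log2(RPKM + 1) and at -0.21 and 0.36 on log2(RPKM + 0.1). Cnr1 and Daglb were at -0.38 and -0.081 with the length and GC trend removed, and Cnr1 was at -0.19 without both libraries named with L. After EtOH, Napepld was at -0.021 with DESeq2, and Abhd12 at -0.0024 and -0.0029 on the RPKM scales. Daglb, Napepld and Abhd12 were at -0.13, -0.092 and -0.042 with the first letter as a covariate and at -0.084, -0.20 and -0.42 without both libraries named with L. In the interaction, Daglb and Napepld were at 0.059 and 0.30 on log2(RPKM + 1) and at 0.053 and 0.45 on log2(RPKM + 0.1), and removing the length and GC trend gave 0.16 for Cnr1, 0.21 for Daglb and 0.079 for Napepld.

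Over the fits that left out 1 library, the range spanned 0 for EtOH in WT mice in Cnr1 (-0.39 to 0.46), Daglb (-0.15 to 0.42) and Abhd6 (-0.31 to 0.048). It did so for EtOH in KO mice in Dagla (-0.19 to 0.17), Daglb (-0.10 to 0.19), Napepld (-0.074 to 0.36), Mgll (-0.13 to 0.48) and Abhd12 (-0.26 to 0.77). For KO against WT mice under saline it did so in Cnr1 (-0.16 to 0.70) and Daglb (-0.11 to 0.47), and after EtOH in Daglb (-0.081 to 0.24), Napepld (-0.20 to 0.26) and Abhd12 (-0.41 to 0.63). In the interaction it did so in Daglb (-0.38 to 0.18) and Napepld (-0.44 to 0.038).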
